A study of Mus musculus with 2 samples.

Results

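Mitochondrial ribosomal protein genes were compared between Nrn1-/- and Nrn1+/- mice in effector Treg cells, regulatory T cells of an activated surface phenotype. They were taken as all rows typed protein-coding whose symbol begins with Mrpl or Mrps followed by a digit, which gave 77 of 46511 gene rows (21933 of them protein-coding). The 77 genes comprise 48 with a large subunit symbol (Mrpl) and 29 with a small subunit symbol (Mrps). The rule uses symbols and no measured value, although earlier results of these data were known when it was chosen. Poly(A) RNA was sequenced from 1 Nrn1-/- library and 1 Nrn1+/- library. The Nrn1+/- library carries a title calling it wild type, so the contrast is null against heterozygous. All cells came from C57BL/6 mice that also carry the Foxp3DTRgfp allele and were sorted, among other criteria, as CD4+, CD25+, CD44-high and positive for green fluorescent protein from the Foxp3 locus. The age of the mice and the number pooled for a library are not known here. With 1 library per genotype the spread between animals could not be measured, so no p-value is given.

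The mitochondrial ribosome translates the few messenger RNAs of the mitochondrial genome, all of which encode subunits of the respiratory chain and ATP synthase. Its ribosomal RNAs are mitochondrial, but every one of its proteins is encoded in the nucleus, made on cytosolic ribosomes and imported. Some of these proteins have a counterpart in bacteria, and others are found only in mitochondria. T cells that become activated are known to expand mitochondrial protein synthesis.

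Levels are in FPKM, that is, fragments counted per kilobase of a gene's transcript and scaled by the depth of the library. Each ratio is log2 of (Nrn1-/- FPKM + 1)/(Nrn1+/- FPKM + 1). Nrn1 itself, which encodes the surface protein neuritin, had 4.62 FPKM in Nrn1-/- cells and 66.5 FPKM in Nrn1+/- cells, 14.4-fold lower in the library labelled null. The regulatory T cell genes Foxp3 (195 and 257 FPKM in Nrn1-/- and Nrn1+/-) and Il2ra (564 and 601 FPKM) were both abundant. Of 7 markers of the cell type and the sort 6 were lower in Nrn1-/- (median log2 ratio -0.27, summed levels 1941 FPKM in Nrn1-/- and 2253 FPKM in Nrn1+/-), and Cd44 was higher (80.5 and 62.4 FPKM). All 4 T cell markers, Cd3d, Cd3e, Cd3g and Trac, were lower in Nrn1-/- (median -0.26, summed levels 1117 FPKM in Nrn1-/- and 1338 FPKM in Nrn1+/-). Summed levels were 8.14 FPKM in Nrn1-/- and 5.78 FPKM in Nrn1+/- over 8 B cell markers, all 8 higher in Nrn1-/- and none listed at 0. They were 1.90 and 1.52 FPKM over 8 myeloid markers (Clec9a at 0 in both libraries, Csf1r at 0 in Nrn1-/-), 1.34 and 2.01 FPKM over 3 natural killer cell markers, and 3.93 and 4.92 FPKM over Cd8a and Cd8b1. The low values step in whole fragments: 1 fragment on 1 kb was worth 0.0254 FPKM in Nrn1-/- and 0.0192 FPKM in Nrn1+/-. A 1 kb transcript at the median level of the 77 genes then rested on 1964 fragments in Nrn1-/- and 1953 in Nrn1+/-, a counting error of 2.26% in each. At the level of Mrpl35, the lowest of the 77, it rested on 368 and 356 fragments, an error of 5.21% and 5.30%.

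At the deposited scaling the messenger RNAs of nearly all 77 genes stood slightly higher in the Nrn1-/- library. Of the 77 genes 75 were higher in Nrn1-/-, beside 54.2% of the 10699 protein-coding genes that averaged 1 FPKM or more. All 77 passed that minimum, and none needed a high value in a single library to do so, since the lowest value of any of them was 8.64 FPKM (Mrpl35 in Nrn1+/-). In a bulk sample more cells of a type and more RNA per cell cannot be told apart. Markers of dividing cells also stood higher: all 12 were higher in Nrn1-/-, with summed levels of 1529 FPKM in Nrn1-/- and 711 FPKM in Nrn1+/-. The part of these markers, and of the lower T cell markers, in the higher mitochondrial ribosome values was not tested. The median level was 61.6 FPKM in Nrn1-/- and 47.5 FPKM in Nrn1+/-. The median log2 ratio was 0.37 (1.29-fold), with the middle of the distribution, from the 25th to the 75th percentile, between 0.24 and 0.45. Over all protein-coding genes tested the median was 0.035, and over the 4145 protein-coding genes in the same level range (the 10th to the 90th percentile of the mean levels of these 77, up to 113 FPKM) it was 0.082, with 59.7% higher in Nrn1-/-.

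The difference was broad and small. Only 8 of the 77 reached 1.5-fold higher, 10.4%, beside 7.03% of all protein-coding genes tested and 7.09% of those in the same level range. That count was 5 with the libraries centred on the median of all genes tested, 2 with equal upper quartiles, 2 with equal sums of protein-coding rows and 0 with equal sums of all rows. None reached 1.5-fold lower (3.69% of all, 2.85% in the level range), and none reached 2-fold higher (1.21% of all, 1.25% in the level range). The log2 ratios spread by a standard deviation of 0.17 over the 77 genes, against 0.36 over the protein-coding genes of that level range. A 1 kb transcript at the median level has a 95% counting interval of 0.091 to either side on the log2 scale, and only Mrps16, Mrpl30 and Mrps35 had ratios nearer to 0 than that. The interval is wider for scarcer or shorter transcripts. It was 0.21 for a 1 kb transcript at the level of Mrpl35, and its median was 0.119 over the genes with 1 annotated transcript. Mrpl33 (0.093) and Mrpl23 (0.116) also had ratios nearer to 0 than 0.119. For the 3 genes with 1 annotated transcript the fragments could be estimated directly, and the 95% counting interval of the log2 fold was 0.33 to 0.56 for Mrps28, 0.31 to 0.56 for Mrpl34 and 0.14 to 0.34 for Mrpl50, above 0 in each case. Across the 77 genes, which share these 2 libraries and are not independent, the order of levels was nearly the same in both libraries (Spearman's rho 0.98), and the ratio had little relation to the level (rho -0.094).

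**Figure D1:**
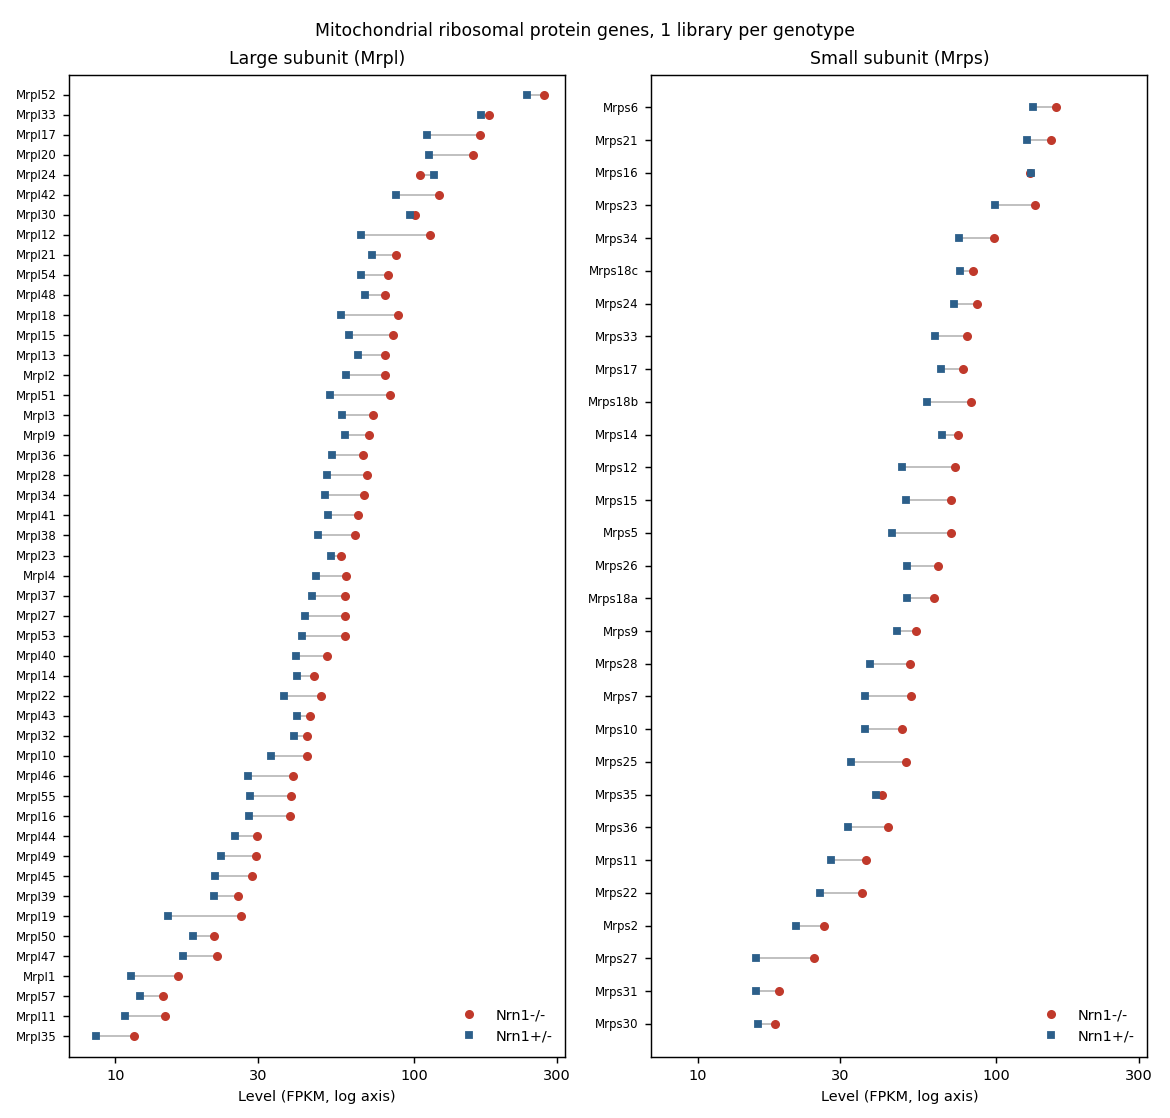
Level of each of the 77 genes in FPKM on a log axis, Nrn1-/- (circles) and Nrn1+/- (squares), for the large subunit on the left and the small subunit on the right, ordered by mean level. In 75 of 77 genes the circle lies to the right of the square, and Mrpl24 and Mrps16 are the exceptions.

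These values depend on how the 2 libraries are scaled, a step of the authors that the sources used here do not describe. The deposited values summed to 790935 FPKM in Nrn1-/- and 645876 FPKM in Nrn1+/- over all rows. Over protein-coding rows they summed to 647545 and 593035 FPKM in Nrn1-/- and Nrn1+/-. Most of the difference between the all-row sums thus lay in rows that are not protein-coding. With the sum of all rows set equal, 51 of the 77 genes were higher, beside 24.5% of the protein-coding genes tested. The median log2 ratio of the 77 was then 0.083. With the sum of protein-coding rows set equal, 71 were higher, beside 40.1% of the protein-coding genes tested, and the median of the 77 was 0.24. Those scalings moved the median of all protein-coding genes tested by -0.27 and -0.12. Relative to genes of the same level range the median of the 77 lay 0.28 to 0.29 higher under each of the 5 scalings tried, the deposited one included, with 73 of 77 genes above that range's median. A scaling shifts the 77 genes and the genes of that range nearly alike. This gap could therefore hardly change, and its steadiness is no test of the scaling. As a share within each library, the 77 genes held 0.815% of the protein-coding FPKM in Nrn1-/- and 0.705% in Nrn1+/-, 1.16 times as large. Of the FPKM of all rows they held 0.667% in Nrn1-/- and 0.647% in Nrn1+/-, 1.03 times as large.

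**Figure D2:**
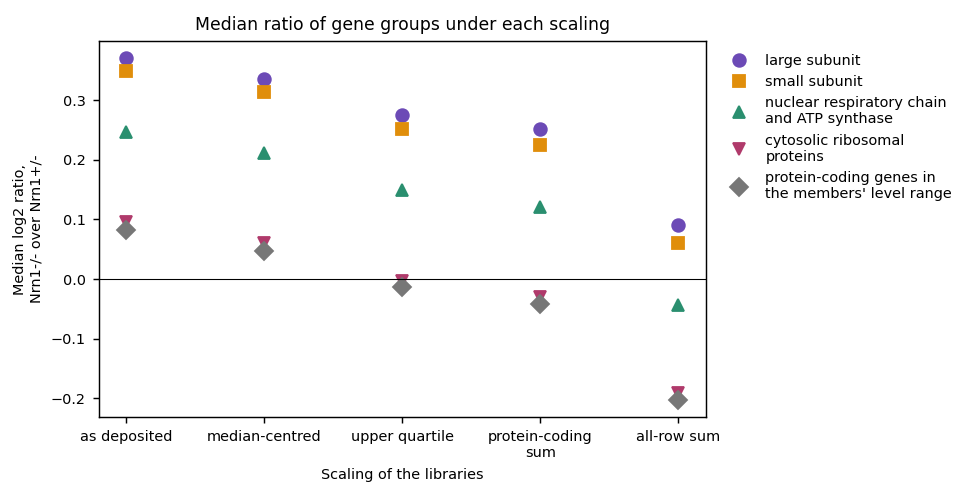
Median log2 ratio of the large subunit, the small subunit, 78 nuclear respiratory chain and ATP synthase genes, 82 cytosolic ribosomal protein genes and protein-coding genes of the same level range, under 5 scalings of the libraries. All 5 sets shift down together from left to right, and the subunits stay above the others, at 0.090 and 0.061 with the sum of all rows set equal. A scaling moves all sets nearly alike, so their order could hardly change.

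Large and small subunit differed little. The large subunit genes had a median of 58.9 FPKM in Nrn1-/- (11.5 to 272) and 47.2 FPKM in Nrn1+/- (8.64 to 238). The small subunit genes had a median of 63.8 FPKM in Nrn1-/- (18.2 to 158) and 48.4 FPKM in Nrn1+/- (15.7 to 133). Of 48 large subunit genes 47 were higher in Nrn1-/- with a median log2 ratio of 0.37, and of 29 small subunit genes 28 were higher with a median of 0.35. At least 1.5-fold higher were 5 large subunit genes (10.4%) and 3 small subunit genes (10.3%). The difference of the medians, large minus small, was 0.023, well inside the standard deviations of 0.17 and 0.16 within the subunits. Its sign did not hold: human structures place the products of Mrps18a and Mrps30 in the large subunit, and with these genes moved there the difference was -0.017. The summed FPKM of the large subunit was 1.65 times that of the small subunit in Nrn1-/- and 1.63 times in Nrn1+/-.

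Counterparts of bacterial proteins and mitochondrion-specific proteins were likewise close. Among 45 genes of the first kind 43 were higher in Nrn1-/- (median log2 ratio 0.38), and among 28 of the second kind all 28 were (median 0.34). Mrpl55, Mrps18a, Mrps18b and Mrps36 were left out of this split because their place in it is not clear. All 4 were higher in Nrn1-/-, with log2 ratios from 0.29 to 0.47.

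The largest ratios belonged to genes of both subunits. Mrpl19 (ENSMUSG00000030045.10, GRCm38 chromosome 6, 81957851 to 81965958, minus strand), a bacterial-type large subunit protein, stood at 26.3 FPKM in Nrn1-/- and 15.0 FPKM in Nrn1+/-, 1.75-fold. Mrpl12 (ENSMUSG00000039640.7, chromosome 11, 120484613 to 120489065, plus strand) encodes the stalk protein that draws translation factors to the ribosome and that in human cells also binds the mitochondrial RNA polymerase. It stood at 113 FPKM in Nrn1-/- and 66.4 FPKM in Nrn1+/-, 1.70-fold. Mrpl51, a mitochondrion-specific protein, followed with 83.2 and 52.3 FPKM in Nrn1-/- and Nrn1+/-.

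In the small subunit Mrps5 (ENSMUSG00000027374.11, chromosome 2, 127587222 to 127606829, plus strand) had the largest ratio. Its product is related to the bacterial protein at the entry of the messenger RNA channel, and it stood at 70.3 FPKM in Nrn1-/- and 44.9 FPKM in Nrn1+/-, 1.57-fold. Mrps27, a pentatricopeptide repeat protein, stood at 24.5 FPKM in Nrn1-/- and 15.7 FPKM in Nrn1+/-. Mrps25, a mitochondrion-specific protein, stood at 49.7 FPKM in Nrn1-/- and 32.5 FPKM in Nrn1+/-. The 1.5-fold line fell between Mrpl17 (166 and 109.9 FPKM in Nrn1-/- and Nrn1+/-, log2 ratio 0.59) and Mrps12, the counterpart of the bacterial decoding protein (72.6 and 48.4 FPKM, log2 ratio 0.57). Mrps7 completed the first 10 with 51.9 FPKM in Nrn1-/- and 36.2 FPKM in Nrn1+/-, which makes 5 of these genes large and 5 small subunit.

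The exons of 32 of the 77 genes overlap exons of another annotated gene, and the library kit named in the labels does not mark strand, so such reads cannot be told apart. Of the 8 genes at 1.5-fold or more, 6 have an overlap: only Mrps5 and Mrpl17 have none. The partner of Mrpl12 is the noncoding RNA gene Gm16755 on the opposite strand (1.13 FPKM in Nrn1-/- and 0.532 FPKM in Nrn1+/-). The partner of Mrpl19 is Gcfc2 (6.63 and 6.10 FPKM), and that of Mrpl18 is the abundant chaperonin gene Tcp1 (417 and 288 FPKM in Nrn1-/- and Nrn1+/-). Mrpl51 overlaps the microRNA gene Mir3098 (listed at 0 FPKM in both libraries), and Mrps27 overlaps 6430562O15Rik (0.669 and 0.544 FPKM). Mrps25 overlaps Nr2c2, which was lower in Nrn1-/- (19.3 FPKM in Nrn1-/- and 25.6 FPKM in Nrn1+/-). Among the 45 genes without overlap 44 were higher in Nrn1-/-, with a median log2 ratio of 0.38, against 31 of the 32 with overlap, whose median was 0.35. At least 1.5-fold higher were 2 of the 45 without overlap (4.44%) and 6 of the 32 with overlap (18.8%), beside 7.03% of all protein-coding genes tested.

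At the other end stood Mrpl24 (ENSMUSG00000019710.12, chromosome 3, 87919506 to 87923672, plus strand), whose product lies by the exit of the nascent chain tunnel. It had 104.6 FPKM in Nrn1-/- and 116 FPKM in Nrn1+/-, a log2 ratio of -0.15. Mrps16 (ENSMUSG00000049960.3, chromosome 14, 20389304 to 20393634, minus strand) had 129.7 and 130.2 FPKM in Nrn1-/- and Nrn1+/-, a log2 ratio of -0.0052. Mrpl24 was thus the only gene further below 0 than the interval of 0.091, and its exons overlap those of Rrnad1 (16.8 FPKM in Nrn1-/- and 17.7 FPKM in Nrn1+/-). Mrpl30 (101 and 96.8 FPKM), Mrps35 (41.3 and 39.7 FPKM) and Mrpl33 (178 and 167 FPKM in Nrn1-/- and Nrn1+/-) came next, all by less than 1.1-fold.

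**Figure D3:**
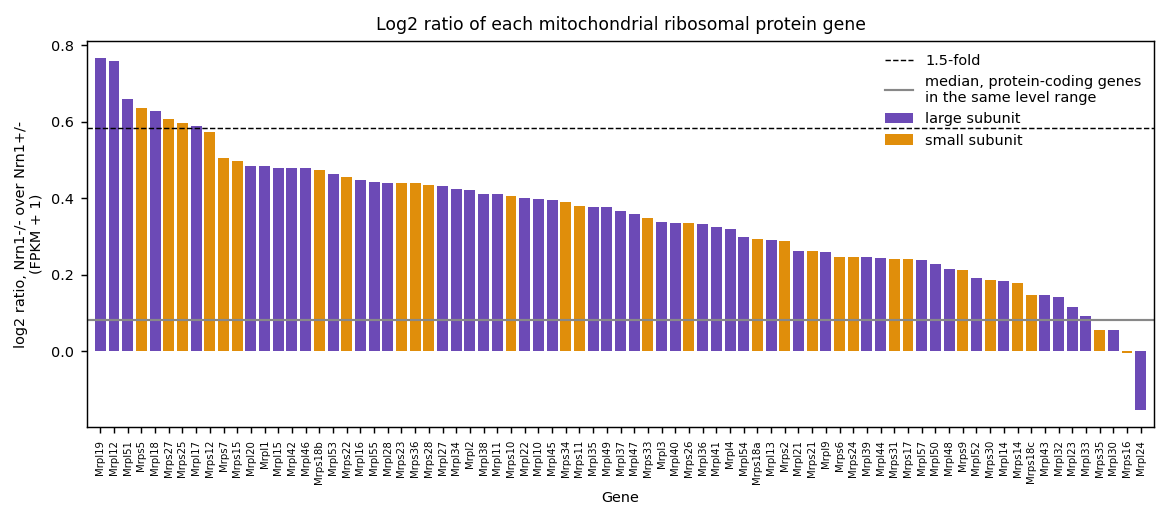
Log2 ratio of each of the 77 genes, from the largest to the smallest, coloured by subunit, with the 1.5-fold line (dashed) and the median of protein-coding genes in the same level range (grey, 0.082). The 2 colours are mixed along the whole order, 8 bars pass the dashed line, and the bars of Mrpl24 and Mrps16 lie below 0.

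The 77 genes lie on 17 chromosomes, and their promoters are shown as description. The part of promoters in the higher values was not tested. A window from 250 bases before to 50 bases after the start was given by RefSeq (GRCm38.p6) for 68 of the 77 genes. The windows were searched on both strands for CCGGAAG, the core bound by ETS factors such as GABPA, for AAGATGGC, the YY1 site, for CACGTG, the E-box, and for the palindromic NRF1 site. None of these runs contains another, but the end of the ETS core can share letters with the start of the YY1 run. Below are the genes with the largest ratio in each subunit that have a window (Mrpl12, Mrps5), the lowest in each (Mrpl24, Mrps16), and Mrps27, which holds matches to 2 of the motifs. Capitals mark the matches.
Mrpl12, chr11:120484387-120484686, plus strand: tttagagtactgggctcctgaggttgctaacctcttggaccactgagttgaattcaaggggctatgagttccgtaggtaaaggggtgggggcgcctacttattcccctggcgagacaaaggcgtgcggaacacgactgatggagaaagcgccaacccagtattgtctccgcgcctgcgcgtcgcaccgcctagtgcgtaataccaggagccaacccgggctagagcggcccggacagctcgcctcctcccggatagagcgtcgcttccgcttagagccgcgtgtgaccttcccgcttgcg
Mrps5, chr2:127587176-127587475, plus strand: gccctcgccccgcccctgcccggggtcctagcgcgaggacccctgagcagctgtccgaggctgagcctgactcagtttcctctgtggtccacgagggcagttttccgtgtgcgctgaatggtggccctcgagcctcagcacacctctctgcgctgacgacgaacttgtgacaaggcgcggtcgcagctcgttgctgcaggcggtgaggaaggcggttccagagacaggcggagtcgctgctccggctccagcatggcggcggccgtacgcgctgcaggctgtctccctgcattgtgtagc
Mrps27, chr13:99344536-99344835, plus strand: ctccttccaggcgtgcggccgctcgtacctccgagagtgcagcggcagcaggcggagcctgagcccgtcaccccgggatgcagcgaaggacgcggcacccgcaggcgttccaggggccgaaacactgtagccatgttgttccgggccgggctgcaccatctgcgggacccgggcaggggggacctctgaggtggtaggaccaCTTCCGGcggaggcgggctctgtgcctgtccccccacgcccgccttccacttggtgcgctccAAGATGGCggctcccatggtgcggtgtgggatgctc
Mrps16, chr14:20393441-20393740, minus strand: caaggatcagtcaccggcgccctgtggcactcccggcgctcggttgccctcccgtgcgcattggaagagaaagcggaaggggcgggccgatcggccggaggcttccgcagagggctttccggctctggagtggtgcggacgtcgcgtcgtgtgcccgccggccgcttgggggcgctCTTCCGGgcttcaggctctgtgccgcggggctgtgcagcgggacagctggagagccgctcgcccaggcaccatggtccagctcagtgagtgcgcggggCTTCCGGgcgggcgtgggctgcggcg
Mrpl24, chr3:87919294-87919593, plus strand: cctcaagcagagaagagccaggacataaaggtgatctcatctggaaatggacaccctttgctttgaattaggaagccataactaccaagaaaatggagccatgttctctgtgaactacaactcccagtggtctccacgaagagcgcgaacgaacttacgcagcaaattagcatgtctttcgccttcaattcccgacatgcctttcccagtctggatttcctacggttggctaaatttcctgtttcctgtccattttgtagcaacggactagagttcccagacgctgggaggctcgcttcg

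In Mrps27 the reverse complement of the ETS core began 48 bases before the start and the YY1 letters 14 bases after it. The table gives 2 windows for Mrps16, and the one shown held the ETS core on the reverse strand at 74 bases before and 24 bases after the start. Mrpl12, Mrps5 and Mrpl24 held none of the 4 letter runs. Of the 68 genes 25 (36.8%) had the ETS core, beside 8.86% of all 32851 windows and 22.4% of the 8219 protein-coding genes tested that have a window. The YY1 letters were found in 12 genes (17.6%), beside 2.75% of all windows and 5.80% of the genes tested. The NRF1 site was found in 3 genes, Mrpl9, Mrpl32 and Mrpl39 (4.41%, beside 0.971% and 2.59%), and the E-box in 5 (7.35%, beside 7.15% and 12.1%).

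The ETS core was present in 14 of 42 large subunit and 11 of 26 small subunit genes with a window. Genes with the ETS core had a median log2 ratio of 0.35, and those without had 0.37. With the YY1 letters the median was 0.38, and without them it was 0.34. With the NRF1 site the median of the 3 genes was 0.25, and without it the median of the others was 0.38. With the E-box it was 0.37, and without it 0.36. A match of letters is a description of the window and does not show that a factor binds there.

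The most abundant large subunit messenger RNAs were those of Mrpl52 (272 FPKM in Nrn1-/- and 238 FPKM in Nrn1+/-), Mrpl33 and Mrpl17. The scarcest were those of Mrpl35 (11.5 and 8.64 FPKM), Mrpl11, a stalk base protein (14.6 and 10.7 FPKM), and Mrpl57 (14.5 and 12.1 FPKM in Nrn1-/- and Nrn1+/-). In the small subunit Mrps6 (158 and 133 FPKM), Mrps21 (152 and 127 FPKM) and Mrps16 led. Mrps30 (18.2 and 15.9 FPKM), Mrps31 (18.7 and 15.7 FPKM in Nrn1-/- and Nrn1+/-) and Mrps27 closed the order. The proteins are needed in equal number in each ribosome, apart from the several copies of Mrpl12, whereas the messenger RNA levels per length spanned from 11.5 to 272 FPKM in Nrn1-/- and from 8.64 to 238 FPKM in Nrn1+/-.

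By position in the ribosome every region had most of its genes higher. The regions and their genes were chosen after the values were seen, so the medians by region are description only. In the stalk Mrpl10 (43.9 FPKM in Nrn1-/- and 33.1 FPKM in Nrn1+/-) and Mrpl11 had log2 ratios of 0.40 and 0.41, below the 0.76 of Mrpl12. In the central protuberance all 6 genes were higher (median 0.42), from Mrpl48 (79.6 and 68.4 FPKM) to Mrpl18, the relative of the bacterial 5S RNA binding protein (88.4 and 56.9 FPKM in Nrn1-/- and Nrn1+/-). Around the exit tunnel 5 of 6 were higher (median 0.38). This group held the widest range, with Mrpl17 at 0.59, Mrpl22 (48.9 and 36.8 FPKM) at 0.40, Mrpl45, which ties the ribosome to the inner membrane (28.7 and 21.6 FPKM), at 0.40, Mrpl23 (57.1 and 52.6 FPKM) at 0.12 and Mrpl24 at -0.15.

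In the small subunit the 3 genes of decoding and messenger RNA entry, Mrps5, Mrps12 and Mrps24 (85.9 FPKM in Nrn1-/- and 72.2 FPKM in Nrn1+/-), had a median of 0.57. The 4 genes of the head had a median of 0.31, from Mrps14 (74.6 and 65.8 FPKM) to Mrps7. The 5 of the platform had a median of 0.26, from Mrps18c (83.5 and 75.2 FPKM in Nrn1-/- and Nrn1+/-) to Mrps15 (70.7 and 49.8 FPKM). With 3 to 6 genes in each region, these medians describe the named genes and no more.

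The paralogs Mrps18a, Mrps18b and Mrps18c descend from the same bacterial gene family but sit at different places in the ribosome. Mrps18a stood at 61.6 FPKM in Nrn1-/- and 50.05 FPKM in Nrn1+/-. Mrps18b stood at 81.9 FPKM in Nrn1-/- and 58.7 FPKM in Nrn1+/-. Their log2 ratios of 0.29, 0.47 and 0.15 for a, b and c spanned more than the 25th to 75th percentile of the 77 genes. Mrpl36, a relative of the smallest bacterial ribosomal protein, had 67.3 FPKM in Nrn1-/- and 53.2 FPKM in Nrn1+/-. Mrps36, a product since assigned to the 2-oxoglutarate dehydrogenase complex rather than the ribosome, had 43.4 FPKM in Nrn1-/- and 31.8 FPKM in Nrn1+/-, a log2 ratio of 0.44.

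**Figure D4:**
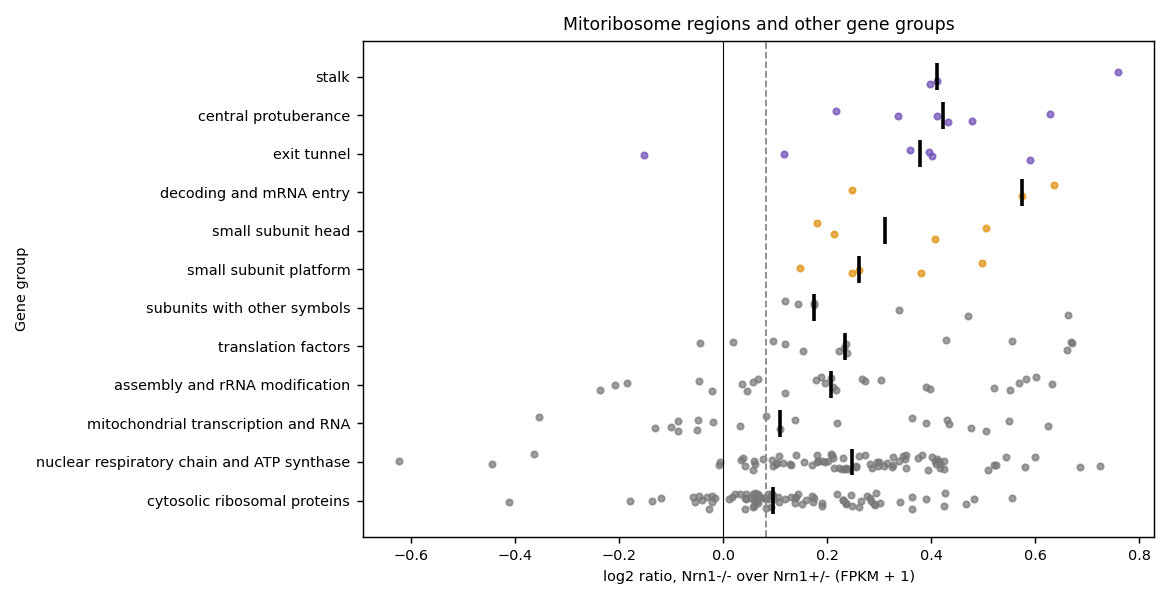
Log2 ratio of single genes (points, placed at random heights within a row) and the median (black bar) in 6 regions of the mitochondrial ribosome (upper rows, purple for the large and orange for the small subunit) and in 6 other gene groups (grey). The dashed line marks 0.082, the median of protein-coding genes in the level range of the 77 genes, and all but 1 of the ribosome points (Mrpl24) lie to its right. The 6 regions were chosen after the values were seen.

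Genes that work with the mitochondrial ribosome were higher less evenly. Ribosome components under other symbols, together with the membrane insertase gene Oxa1l, were higher in 7 of 7 cases (median log2 ratio 0.18). Gadd45gip1, a large subunit protein, led with 14.9 FPKM in Nrn1-/- and 9.04 FPKM in Nrn1+/-, followed by Ptcd3, a pentatricopeptide repeat protein of the small subunit (42.2 and 30.2 FPKM). Ict1, also called Mrpl58, a peptidyl-tRNA hydrolase built into the large subunit, had 79.6 FPKM in Nrn1-/- and 70.4 FPKM in Nrn1+/-. Aurkaip1 (103 and 93.3 FPKM) and Oxa1l (38.5 and 35.4 FPKM in Nrn1-/- and Nrn1+/-) had the smallest ratios.

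Of 14 genes listed with the translation factors 13 were higher (median log2 ratio 0.23). Of the 14, 3 reached 1.5-fold on the log2 ratio scale, beside 7.03% of all protein-coding genes tested. These 3 were Tufm, Tsfm and Gfm1, all of the elongation cycle, and the recycling factor gene Mrrf (17.7 FPKM in Nrn1-/- and 11.7 FPKM in Nrn1+/-) stayed just under the line with a log2 ratio of 0.56, although its fold without the pseudocount was 1.51. Tufm, the mitochondrial factor that delivers aminoacyl-tRNA, stood at 66.4 FPKM in Nrn1-/- and 41.6 FPKM in Nrn1+/-. Tsfm, its nucleotide exchange factor, stood at 44.9 FPKM in Nrn1-/- and 27.9 FPKM in Nrn1+/-. Gfm1, the translocase, stood at 58.0 FPKM in Nrn1-/- and 36.0 FPKM in Nrn1+/-. Their folds without the pseudocount were 1.60, 1.61 and 1.61. The initiation factors Mtif2 (19.4 and 17.4 FPKM) and Mtif3 (15.3 and 14.0 FPKM in Nrn1-/- and Nrn1+/-) differed by 1.12-fold and 1.09-fold. Mtrf1l, a release factor, was the lower gene at 6.87 and 7.12 FPKM. Mief1 (12.9 and 12.7 FPKM), listed here although its main product is not a translation factor, was next to Mtrf1l.

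Among 27 genes of ribosome assembly and ribosomal RNA modification 22 were higher (median log2 ratio 0.21). Rpusd3, a pseudouridine synthase family member (7.82 FPKM in Nrn1-/- and 4.69 FPKM in Nrn1+/-), and Ndufab1, the mitochondrial acyl carrier protein (180 and 118 FPKM), had the largest ratios. Ngrn (19.2 FPKM in Nrn1-/- and 22.7 FPKM in Nrn1+/-) and Mterf3 (26.1 and 30.3 FPKM) had the smallest. Genes of mitochondrial transcription and RNA handling were divided, with 13 of 21 higher and 8 lower (median 0.11). The RNA processing enzyme gene Elac2 stood at 35.7 FPKM in Nrn1-/- and 22.8 FPKM in Nrn1+/-, and Prorp, the nuclease of mitochondrial RNase P, at 8.58 and 5.55 FPKM. The genome packaging factor gene Tfam (40.4 FPKM in Nrn1-/- and 43.0 FPKM in Nrn1+/-) and the RNA polymerase gene Polrmt (20.8 and 20.4 FPKM) differed by less than 1.1-fold. Mterf1a (4.30 and 5.78 FPKM in Nrn1-/- and Nrn1+/-) and Tefm (10.7 and 11.8 FPKM) had the smallest ratios, and Mterf1a has a near copy in Mterf1b (1.85 and 1.95 FPKM in Nrn1-/- and Nrn1+/-), so reads may be split between them. With the sum of all rows set equal, the medians of these 4 lists all turned negative, at -0.11, -0.040, -0.051 and -0.16.

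The median ratios of genes for related complexes were smaller than that of the 77 genes. Nuclear genes of the respiratory chain and ATP synthase, the complexes whose mitochondrial subunits this ribosome makes, were higher in 73 of 78 cases with a median log2 ratio of 0.25. At least 1.5-fold higher were 3 (3.85%), beside 7.03% of all protein-coding genes tested. At least 1.5-fold lower was 1, beside 3.69% of all. Cycs, the electron carrier cytochrome c (69.9 FPKM in Nrn1-/- and 41.9 FPKM in Nrn1+/-), and Ndufc1 of complex I (108 and 66.5 FPKM) had the largest ratios, and Cox6b2 (4.61 and 7.65 FPKM) and Ndufa6 (125 and 170.1 FPKM in Nrn1-/- and Nrn1+/-) the smallest. Cytosolic ribosomal protein genes were higher in 69 of 82 cases with a median of 0.096, and none reached 1.5-fold. Their ends were Rpl29 (1052 FPKM in Nrn1-/- and 716 FPKM in Nrn1+/-) and Rps2 (2707 and 1937 FPKM) on the higher side, and Rps27 (3858 and 5133 FPKM) and Rpl17 (1435 and 1625 FPKM in Nrn1-/- and Nrn1+/-) on the lower. These genes have many processed pseudogenes, so single values among them are uncertain. With the sum of all rows set equal, both medians turned negative, at -0.043 and -0.19. The summed FPKM of the 77 mitochondrial genes was 3.18% of that of the cytosolic ribosomal protein genes in Nrn1-/- and 2.72% in Nrn1+/-, 1.17 times as large. Set against the respiratory chain and ATP synthase it was 28.8% in Nrn1-/- and 28.0% in Nrn1+/-, 1.03 times as large. The 2 ribosomal RNAs and the messenger RNAs of the mitochondrial genome give no measure here, because all 37 rows of that genome are listed at 0 in both libraries.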

How the data were processed

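Poly(A) RNA of 1 Nrn1-/- and 1 Nrn1+/- library was analysed, grouped by the genotype labels. The deposited values are FPKM per gene, computed by the authors. Per the submitters' processing notes, FastQC, TopHat, Cuffdiff and Cuffnorm were used, with mm10 and GRCm38 as builds. Their versions, the annotation and how the libraries were scaled to each other are not given here. Gene positions, transcripts and overlaps came from GENCODE M21 on GRCm38, in which all 77 genes matched by identifier.

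Ratios were log2((Nrn1-/- + 1)/(Nrn1+/- + 1)), which understates differences of low genes. Folds carry no pseudocount, while the 1.5-fold line applies to the log2 ratio. The background was every protein-coding gene averaging 1 FPKM or more. The value of 1 fragment was found from 488 values in Nrn1-/- and 539 in Nrn1+/- of long genes with 1 annotated transcript, of which 91.4% and 91.1% lay within 0.1 of whole fragments, where chance gives 20%. The effective length was the transcript less 190 and 210 bases. Counting errors leave out duplicate fragments of a molecule, which no molecular identifiers mark. The 95% counting interval of a ratio is exact (Clopper-Pearson). The calculation was tested on simulated data. The genes, lists and regions were chosen with earlier results of these data known, and the regions of the ribosome, Mtif2, Mtif3, Tfam and Polrmt after the values were seen. Named genes were the 10 largest and 5 smallest ratios, the 3 highest and 3 lowest levels per subunit, genes of known roles, and the 2 largest and 2 smallest ratios of each other list. Mtrfr was not matched, Trmt61b is not typed as protein-coding, and Mrp63 is Mrpl57. Python 3.11.15, numpy 2.4.6, pandas 2.3.3, scipy 1.17.1 and matplotlib 3.10.9 were used. A gene among the cell type markers is not reported here.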

Additional observations from a re-analysis of the deposited data

How the results depend on the processing

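Scaling mattered most. With each library set to a sum of 1000000 over all rows, the median log2 ratio was 0.083 for all 77 genes, 0.090 for the large and 0.061 for the small subunit, 0.097 for bacterial-type and 0.055 for mitochondrion-specific subunits, and 0 genes were at least 1.5-fold higher. The other lists turned negative. Medians were -0.11 for subunits with other symbols (Oxa1l included), -0.040 for translation factors and -0.051 for assembly. They were -0.16 for transcription and RNA, -0.19 for cytosolic ribosomal proteins and -0.043 for the respiratory chain. With protein-coding rows set to that sum, the medians were 0.24, 0.25 and 0.22 for all, large and small, and 0.22 for mitochondrion-specific subunits. They were 0.050 for subunits with other symbols (Oxa1l included) and 0.12 for the respiratory chain. For transcription and RNA the median was -0.0078, and for cytosolic ribosomal proteins -0.031. Of the 77 genes 2 were at least 1.5-fold higher. Equal upper quartiles gave 2 such genes and a median of -0.0026 for cytosolic ribosomal proteins. Median centring and a pseudocount of 5 FPKM gave 5 such genes each. With only the 45 genes without exon overlap, an alternative chosen after seeing the data, 44 were higher and 2 at least 1.5-fold higher. The latter share was 4.44%, against 10.4% of all 77 and 7.03% of all protein-coding genes tested. The cause of the smaller share was not tested. With Mrps18a and Mrps30 in the large subunit, the ratio of large to small median levels in Nrn1-/- was 0.84, against 0.92. In Nrn1+/- that ratio stayed at 0.975. Of 136 alternative values 108 moved by less than counting error (0.12 on the log2 scale, the median of 3 genes with 1 transcript) with no change of sign, the large minus small difference aside, or, for counts, stayed within 1.5 times. A further 19 moved by more, and 9 changed sign. Some of the 108 could not have moved, so this tally overstates stability. All 77 genes pass a minimum mean of 5 FPKM, so that minimum, or none, only repeats their values. Median centring cannot change the large minus small difference. The large minus small difference stayed between -0.017 and 0.074 and was also negative (-0.013) with a pseudocount of 5 FPKM. No library could be left out with 1 per genotype. No paired analysis was possible because each genotype has 1 library.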

Other observations

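The 5 rows outside the group that carry a mitochondrial ribosomal symbol are pseudogenes. Mrpl23-ps1 was listed at 3.803 FPKM in Nrn1-/- and 4.20 FPKM in Nrn1+/-, while Mrpl23 itself stood at 57.1 FPKM in Nrn1-/- and 52.6 FPKM in Nrn1+/-. Mrpl48-ps was listed at 0 FPKM in Nrn1-/- and 0.045 FPKM in Nrn1+/-, and the 3 Mrps36 pseudogenes at 0 in both libraries. The sources used here do not say how reads shared with such copies were divided.

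Mrps11 and Mrpl46 lie head to head on chromosome 7, on opposite strands with exons that overlap at their starts. Mrps11 stood at 36.7 FPKM in Nrn1-/- and 27.9 FPKM in Nrn1+/-, and Mrpl46 at 39.2 FPKM in Nrn1-/- and 27.9 FPKM in Nrn1+/-. Their log2 ratios were 0.38 and 0.48.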
